A study of Mus musculus with 4 samples.

Results

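The receptors built around the common gamma chain were followed across 4 mouse Th17 cultures that kept or had lost the transcription factor STAT3 or STAT5. The genes Il2ra, Il2rb, Il2rg, Il4ra, Il7r, Il9r, Il15ra and Il21r make up this family, and every probe set that names only one of them was taken. The array gave 13 such probe sets for 7 of the 8 genes, out of 18193 genes that at least 1 probe set names alone. Il2rg, which encodes the shared chain itself, was not analysed here.

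Naive CD4+ T cells, sorted as CD44-negative and CD62L-positive from lymph nodes and spleen of mice of strain C57BL/6J with the OT2 T cell receptor transgene, were cultured for 72 h on plate-bound anti-CD3 with anti-CD28 and anti-IL-4, with TGF-beta at 2 ng/ml and IL-6 at 20 ng/ml. The STAT3 wild type culture carried stat3 fl/fl without Cre, and the STAT3-deficient culture carried CD4-Cre with stat3 fl/fl. Both of these received an antibody against IL-2 (10 µg/ml). The STAT5 wild type culture carried stat5 fl/fl without Cre, and the STAT5-deficient culture carried CD4-Cre with stat5 fl/fl. Both of these received IL-2 (100 IU/ml). The 2 controls thus differed in the floxed locus and in IL-2 at once, which cannot be told apart. Within each pair, only the deficient culture carried Cre, so deletion and the presence of Cre cannot be told apart either. Cre under the Cd4 promoter acts already in the thymus, so deletion preceded the culture. The labels give neither the number of animals nor whether they were pooled. The genotype field of both deficient samples ends in the words for wild type, so the groups follow the sample titles.

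Cytokines of this family bind receptors that share the common gamma chain, which carries the kinase JAK3, while the partner chain usually carries JAK1. IL-2, IL-7, IL-9 and IL-15 act mainly through STAT5, IL-4 through STAT6 and IL-21 through STAT3. In activated T cells the family sets growth and survival: IL-2 restrains Th17 differentiation through STAT5, IL-21 sustains it through STAT3, and IL-7 keeps resting cells alive.

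There was 1 array per group and no replicate, so no difference has a test or an error, and precision is limited by the small number of arrays. Each level is the deposited value of a probe set, read here as log2, so that a difference of 1 is 2-fold. Genes count as higher or lower from 2-fold on. Where 4 levels of a gene are listed, they are those of the STAT3 pair and then of the STAT5 pair, control first. Levels under 6.20, the median of all values, are not told from background here, and 12439 genes exceeded it on at least 1 array and were compared. Against their controls, Stat3 differed by -2.94 on the STAT3-deficient array, and Stat5a and Stat5b by -5.01 and -5.24 on the STAT5-deficient array, in the direction the titles state. For Stat3, 2 of 4 probe sets differed by only -0.22 and -0.41. The other 2 still stood at 9.93 and 9.67 on the STAT3-deficient array. Stat5a and Stat5b stood at 5.91 and 6.09 on the STAT5-deficient array. The other Stat5b probe set, which differed by -2.97, stood at 6.87 there. Below, without STAT3 and without STAT5 mean the deficient array of that pair. All 8 measured genes of a 10-gene CD4 T cell list exceeded 6.20 on every array, with Cd4 between 10.88 and 11.84. The B cell genes Ms4a1, Cd79a and Blnk, the myeloid genes Itgam, Cd14 and Adgre1 and the NK cell genes Ncr1, Klra8 and Tyrobp lay under 6.20 on all 4 arrays. Other markers of these cell types exceeded it on at least 1 array, namely Pax5 (up to 6.66), Cd79b (6.67), Csf1r (7.73), Spi1 (6.71), Lyz2 (6.26), Fcer1g (6.63) and Klrk1 (6.84), as did the CD8 T cell genes Cd8a (6.88) and Cd8b1 (8.06) and the gamma delta T cell genes Cd163l1 (7.51), Sox13 (6.43) and Blk (6.38). Their part in the results was not tested. In a bulk culture, fewer cells that express a receptor and less of its RNA per cell cannot be told apart.

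Of the 7 measured receptor genes, 6 were above background on at least 1 array, and by their brightest probe sets Il4ra and Il7r were those that passed 2-fold in any comparison. Without STAT3, 2 of 6 were lower and 0 higher. Of all genes compared, 10.1% passed 2-fold there, 7.24% lower and 2.85% higher. The receptors' median difference was -0.76, against -0.20 over all genes. An offset between the arrays and many genes being lower cannot be told apart here. If the -0.20 is an offset, it lies under each value of this comparison. Without STAT5, 1 of 6 was higher and 0 lower, where 3.6% of all genes passed 2-fold, 1.86% higher and 1.74% lower, and the median was 0.24 against 0.06. Between the controls, STAT5 wild type minus STAT3 wild type, 1 of 6 was lower and 0 higher, where 5.3% of all genes passed 2-fold, 2.95% lower and 2.35% higher, and the median was 0.08 against 0.06. With 6 genes, a single call moves these shares widely.

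**Figure D1:**
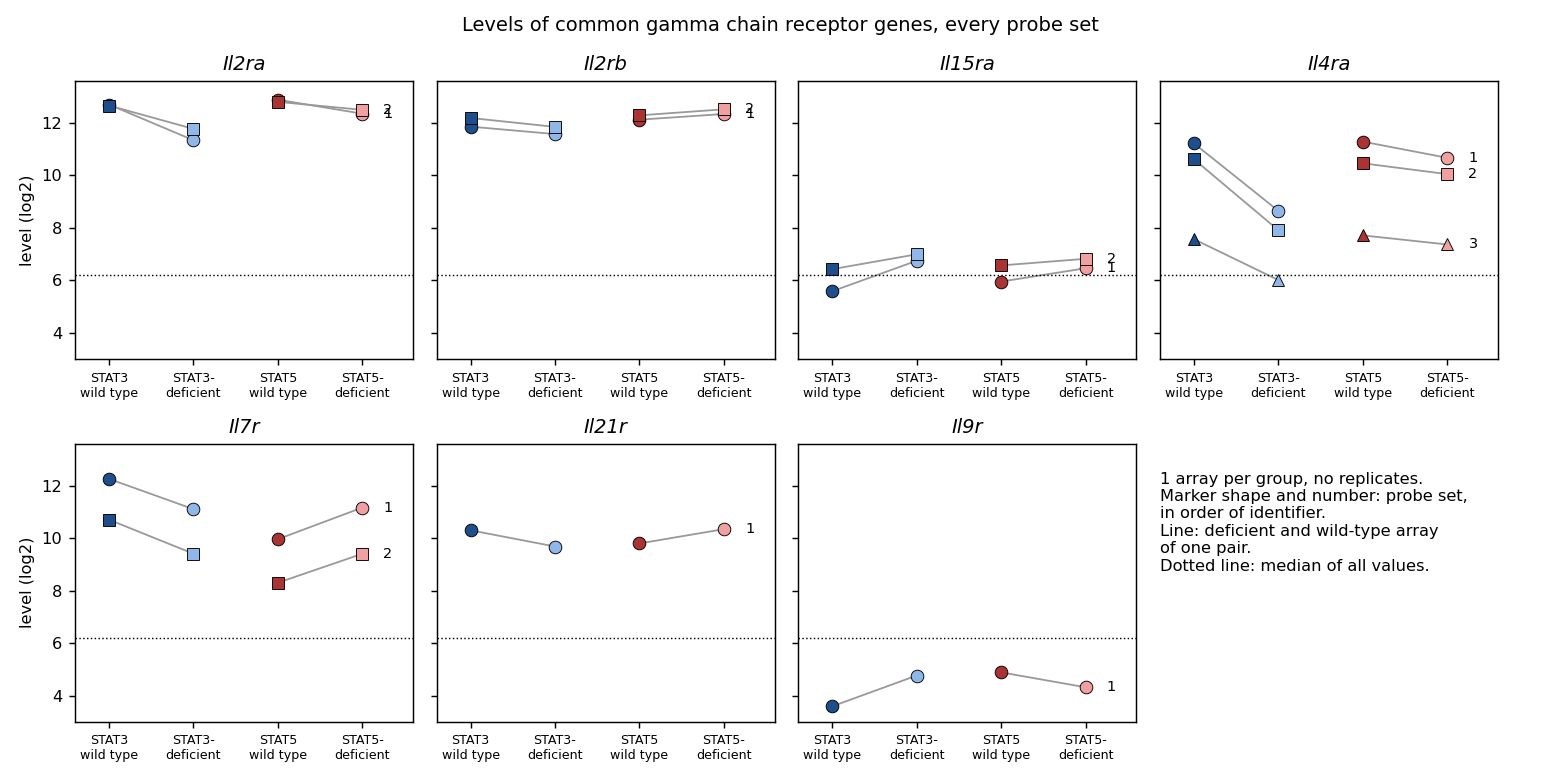
Level (log2, deposited scale) of each probe set on the 4 arrays, 1 panel per gene; lines join the wild-type and deficient array of a pair and the dotted line is the median of all values, 6.20. Il4ra drops on the STAT3-deficient array in all 3 probe sets, Il7r is lowest on the STAT5 wild type array in both, and Il9r lies under the dotted line throughout.

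Il4ra encodes the IL-4 receptor alpha chain, which pairs with the common gamma chain to bind IL-4 and, with another partner, IL-13. Its brightest probe set stood at 11.22 with STAT3 and 8.65 without it, and at 11.29 with STAT5 and 10.67 without it. The STAT3-deficient array was low and the other 3 lay close together. The difference without STAT3 was -2.57, or 5.95-fold, and 0.812% of all genes compared had a lower one. The other 2 probe sets gave -2.71 and -1.56. All 3 have identifiers that mark a probe set shared between transcripts of the gene or with probes that may match elsewhere, and the dimmest ended under background, at 6.01, on the STAT3-deficient array. Without STAT5 the 3 probe sets differed by -0.62, -0.41 and -0.35, all on the same side and all short of 2-fold. The controls differed by 0.07, and the other probe sets by -0.16 and 0.14. Il4ra thus had like levels on the 2 control arrays, which differed in the floxed locus and in IL-2 at once. IL-4 itself was blocked in every culture.

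The 250 bases before the RefSeq start of Il4ra (chr7:125552021-125552270, + strand, GRCm38.p6) are shown because Il4ra had the largest difference of the family without STAT3. Capitals mark ATGCAAAT, the octamer that POU factors bind.
Il4ra: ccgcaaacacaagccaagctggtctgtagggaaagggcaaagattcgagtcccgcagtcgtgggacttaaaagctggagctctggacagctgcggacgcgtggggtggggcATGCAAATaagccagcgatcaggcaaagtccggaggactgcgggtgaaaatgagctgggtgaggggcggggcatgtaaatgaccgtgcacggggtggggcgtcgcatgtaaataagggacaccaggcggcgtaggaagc
This stretch had 17 CpG dinucleotides and 59.6% G and C, against medians of 6 and 52.4% over all 32851 windows of this kind. The octamer, searched on both strands and chosen after the windows were seen, lies 139 to 132 bases before the start and occurs in 1.60% of all windows. The letters TTCNNNGAA, the core that STAT dimers bind and the same on both strands, are not in this window.

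Il7r encodes the IL-7 receptor alpha chain, the survival receptor of naive and memory T cells, which IL-2 is known to turn down. It stood at 12.26 in STAT3 wild type, 11.11 in STAT3-deficient, 9.96 in STAT5 wild type and 11.16 in STAT5-deficient cells. The STAT3 wild type array was the highest, the STAT5 wild type array the lowest, and the 2 deficient arrays lay close together between them. Its other probe set gave 10.71, 9.41, 8.30 and 9.40 in the same order of groups. Between the controls Il7r was thus lower by 2.30, or 4.94-fold, in the culture with IL-2, and by 2.41 in the other probe set. Of all genes compared, 0.169% had a lower difference.

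In the deletions Il7r differed in opposite directions. Without STAT3 it differed by -1.16 (2.23-fold) and in the other probe set by -1.30. Without STAT5 it differed by 1.21 (2.31-fold) and 1.10, and 98.8% of all genes had a lower difference. These deletions share no array. Genes lower without STAT3 and higher without STAT5, both past 2-fold, numbered 69, or 0.555% of those compared. The call without STAT3 was lost when each array was centred on its median, at -0.91, and under quantile normalization, whereas the other 2 calls for Il7r held under each scaling tried.

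The 250 bases before the start of Il7r (chr15:9529877-9530126, - strand, GRCm38.p6, RefSeq) are shown because Il7r was the receptor past 2-fold in all 3 comparisons. Capitals mark TTCAGGGAA, a match to TTCNNNGAA, and ACTTCC, a core bound by ETS factors.
Il7r: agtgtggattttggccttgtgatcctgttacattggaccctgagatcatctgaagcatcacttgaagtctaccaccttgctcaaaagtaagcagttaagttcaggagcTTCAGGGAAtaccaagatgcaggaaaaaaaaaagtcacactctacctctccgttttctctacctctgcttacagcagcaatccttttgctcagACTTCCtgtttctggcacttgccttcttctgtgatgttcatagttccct
The match to TTCNNNGAA lies 142 to 134 bases before the start. Windows were given for 7 of the 8 receptors, with 2 for Il15ra, and of these 8 windows 1 held TTCNNNGAA, against 7.02% of all windows. ACTTCC, searched on both strands and chosen after the windows were seen, occurred in 2 of the 8, those of Il7r and Il2ra, and in 19.7% of all windows. The Il7r window had 1 CpG and 44.0% G and C, so the promoters of the 2 receptors past 2-fold differed widely in base composition. A match of letters is a description and says nothing of binding.

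**Figure D2:**
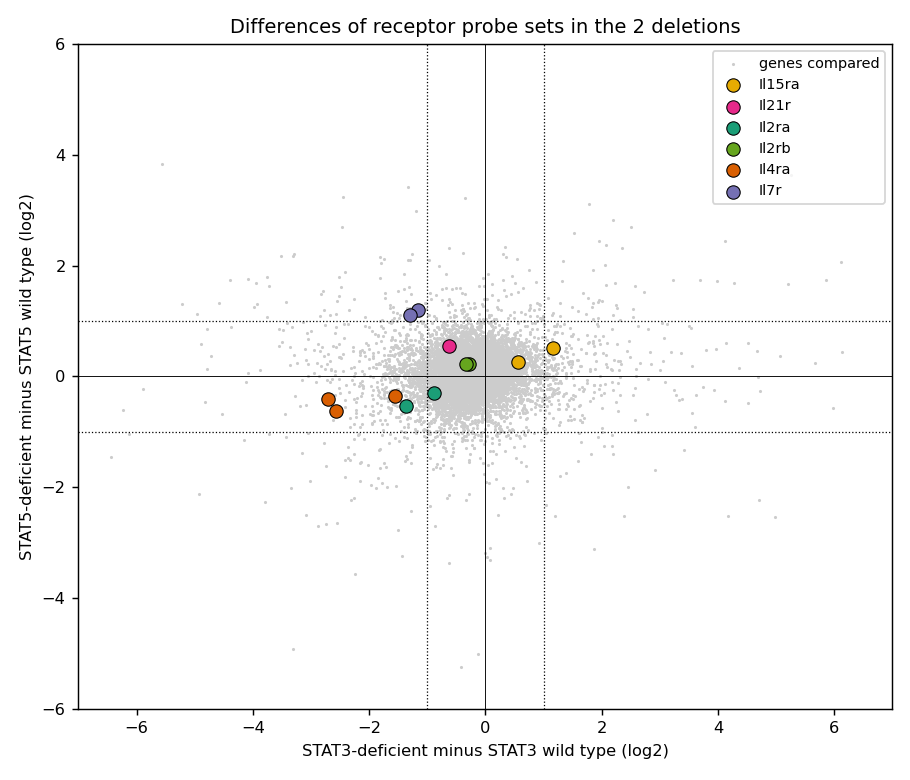
Difference without STAT3 (horizontal, log2) against difference without STAT5 (vertical, log2) for the 12 receptor probe sets above background on at least 1 array, over all genes compared in grey; dotted lines mark 2-fold. The 2 Il7r probe sets lie in the upper left beyond both lines, and the 3 Il4ra probe sets lie far to the left, between the horizontal lines.

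Il2ra, Il2rb and Il15ra encode the chains of the IL-2 and IL-15 receptors. Il2ra encodes CD25, which raises the affinity for IL-2 and is itself induced by IL-2 through STAT5. Its brightest probe set stood at 12.67 with STAT3 and 11.78 without it, and at 12.81 with STAT5 and 12.50 without it, and the other, in the same order, at 12.70, 11.34, 12.89 and 12.36. The STAT3-deficient array was the lowest in both. The difference without STAT3 was -0.89 in the brightest probe set and -1.36 in the other, so 2-fold was passed in 1 of 2, and 8.92% of all genes had a lower difference than -0.89. Without STAT5, Il2ra differed by -0.30 and -0.53, short of 2-fold in both. Between the controls, which differed in IL-2 and in the floxed locus at once, it differed by 0.14 and 0.18 as deposited. That sign turned after loess centring and quantile normalization, to -0.12 and -0.08.

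Il2rb encodes the beta chain shared by the IL-2 and IL-15 receptors. It stood at 12.19 in STAT3 wild type, 11.85 in STAT3-deficient, 12.29 in STAT5 wild type and 12.52 in STAT5-deficient cells, a span of 0.67. Without STAT3 it differed by -0.34 and -0.28 in its 2 probe sets and without STAT5 by 0.23 and 0.22. All arrays were within 2-fold of each other. Tbx21, which encodes T-bet, a known activator of Il2rb, was at 8.94 without STAT3 and 7.87 without STAT5. Both Tbx21 controls lay under 6.20, at 5.25 and 6.13, so the sizes of its differences (3.69 and 1.74) are uncertain.

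Il15ra encodes the chain that binds IL-15 and presents it to neighbouring cells. It lay near background, at 6.43, 6.99, 6.57 and 6.82, and at 5.59, 6.75, 5.95 and 6.46 in a second probe set shared between transcripts. Both deficient arrays were above their controls in both probe sets. The difference without STAT3 was 0.57, and 1.16 in the second probe set, whose control lay under 6.20, which leaves its size uncertain. Without STAT5 the values were 0.25 and 0.51. Of 5 measured NK cell marker genes, 1 exceeded 6.20 in STAT3 wild type and 2 in STAT3-deficient cells. The log2 of their summed level was 7.68 and 8.06, with Klrk1 at 4.05 and 6.84. The other markers did not rise with Klrk1: Ncr1, Klra8 and Fcer1g differed by -0.39, -0.17 and -0.41, and Tyrobp by 0.01. Their part in the difference was not tested.

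Il21r encodes the partner chain for IL-21, which signals through STAT3. It stood at 10.30 in STAT3 wild type, 9.68 in STAT3-deficient, 9.80 in STAT5 wild type and 10.34 in STAT5-deficient cells. It differed by -0.62 without STAT3, 0.55 without STAT5 and -0.50 between the controls, the same signs as Il7r, but with the STAT5-deficient array highest and the STAT3-deficient array lowest. None of these reached 2-fold, and it has a single probe set. Il9r, the IL-9 receptor gene, lay under background on all 4 arrays, at 3.59, 4.76, 4.88 and 4.31, and was not compared.

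The receptor genes lie partly in pairs. On chromosome 2, Il2ra and Il15ra are neighbours, and on chromosome 7, Il4ra and Il21r are, each pair with 0 protein-coding genes between its members in RefSeq. Neighbours differed from each other without STAT3: Il2ra stood at -0.89 and Il15ra at 0.57, and Il4ra at -2.57 and Il21r at -0.62. Without STAT5, Il4ra stood at -0.62 and Il21r at 0.55.

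By a rule set for members whose values span 2-fold or more, the 3 genes with the closest profile over the 4 arrays were named for Il2ra, Il4ra and Il7r. Likeness is the Euclidean distance between profiles after each gene's mean is subtracted, ranked over 12438 other genes. For Il4ra the closest was Maf, a transcription factor of Th17 and follicular helper cells, at a distance of 0.18, with levels of 11.91, 9.50, 11.94 and 11.52. Arid5a, an RNA-binding protein that stabilises cytokine transcripts, followed at 0.20 and Tnfrsf23 at 0.23. For Il2ra the closest were Usp33 (0.045), a deubiquitinase, Nr6a1 (0.046), an orphan nuclear receptor, and Tsg101 (0.066), a component of endosomal sorting. For Il7r the closest were Tmem51 (0.30), 1110064A23Rik (0.36) and Marcksl1 (0.36), an actin-regulating protein. Il7r thus had looser matches than Il2ra, whose profile was also flatter. Tmem51 stood at 8.85, 7.92, 6.77 and 8.17, with the same highest and lowest array as Il7r. The matches use the brightest probe set of each gene, and others of the same gene can differ. The 6 Maf probe sets above background ran from -2.98 to -0.76 without STAT3, and the 3 of Nr6a1 from -0.74 to 0.30 without STAT5. Nr6a1 (5.79) and Tnfrsf23 (5.15) lay under 6.20 on the STAT3-deficient array, and 1110064A23Rik (5.39) on the STAT5 wild type array. With 4 arrays and so many genes, close profiles are a description and carry no test.

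**Figure D3:**
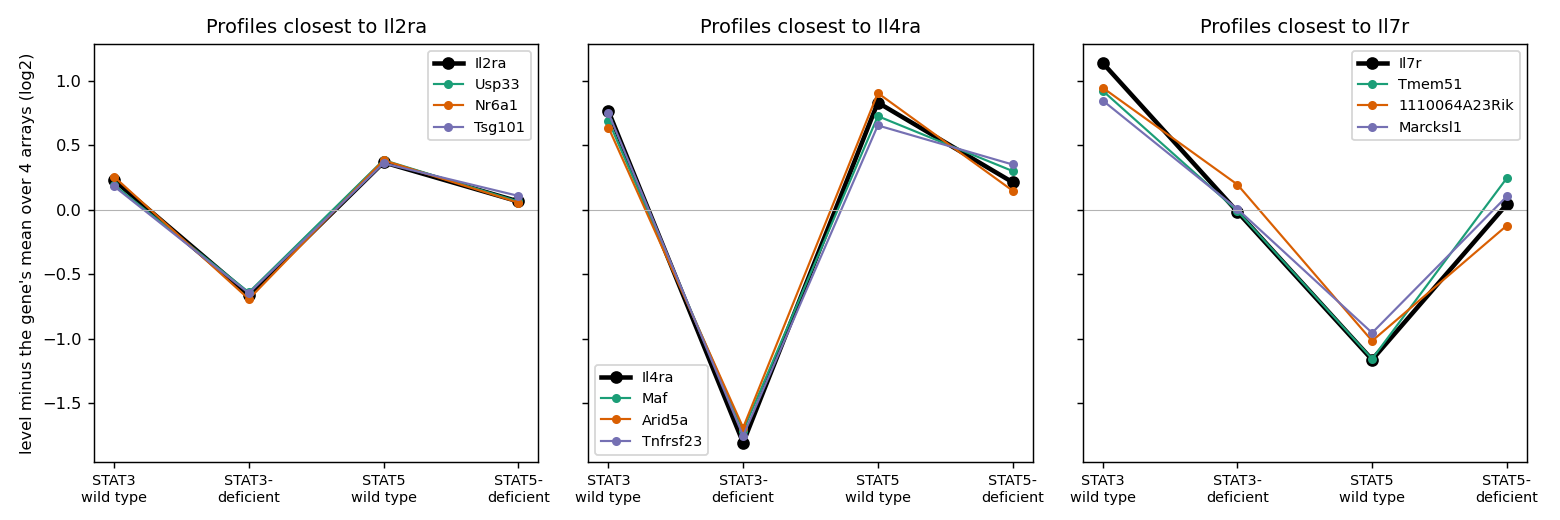
Level minus the gene's own mean over the 4 arrays (log2) for Il2ra, Il4ra and Il7r (black) and the 3 genes with the closest profile to each (colours), 1 point per array. Il4ra and its matches share a trough on the STAT3-deficient array, and Il7r and its matches share a trough on the STAT5 wild type array.

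Of the 6 ligands of these receptors, 3 were above background on some array. Il2 stood at 6.66, 6.99, 6.88 and 9.22 in that order of groups, high on the STAT5-deficient array (2.33 against its control) and near background on the other 3. Il21 stood at 11.30, 5.07, 11.47 and 10.87, and was under background without STAT3 (-6.23), where its receptor gene differed by -0.62. Without STAT5, this Il21 probe set differed by -0.60 and the other by -1.46, and their mean, -1.03, passed 2-fold. Il9 stood at 8.87, 8.89, 13.88 and 10.61, with a difference of 5.01 between the controls, the one with IL-2 higher, and of -3.27 without STAT5, while its receptor gene stayed under background on every array. Il4, Il7 and Il15 lay under background on all 4 arrays, Il4 between 4.71 and 5.30. IL-7 and IL-15 are made mainly by stromal and myeloid cells.

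Among the kinases and STAT factors downstream, 10 of 11 listed genes were compared. Without STAT3, 2 were lower and 1 higher, against 7.24% and 2.85% of all genes. These were Stat3 itself, Jak3, the kinase of the common gamma chain, and Stat4, the factor of IL-12 signalling. Jak3 stood at 11.71, 10.58, 11.14 and 11.11, a difference of -1.13 that came to -0.89 with arrays centred. Jak1 differed by -0.32. Stat4 was higher by 1.08 and Stat6, the IL-4 factor, by 0.34. Without STAT5, the 2 lower genes were Stat5a and Stat5b, Jak3 differed by -0.03, and 0 were higher. Of all genes, 1.74% were lower there and 1.86% higher. Between the controls 0 passed 2-fold, where 5.3% of all genes did, with Jak3 the farthest at -0.57.

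Of 18 listed adaptors and feedback genes, 14 were compared. Without STAT3, 3 were lower and 1 higher, against 7.24% and 2.85% of all genes. Socs3, an inhibitor induced by STAT3, differed by -4.82, Gab2, an adaptor of IL-2 signalling, by -2.32, Ptpn2, a phosphatase that acts on JAK1 and JAK3, by -1.02 and Socs2 by 1.86. With arrays centred Ptpn2 stood at -0.77, and the phosphatase gene Ptpn6 passed 2-fold upwards under all 3 scalings (1.09 to 1.19) and Ptpn11 under 2 of them (1.02 and 1.04). The mean of the 5 Socs2 probe sets was 0.89, short of 2-fold. Without STAT5, Socs2 (-3.12) and Gab2 (-2.23) were lower and 0 higher, against 1.74% lower and 1.86% higher of all genes. Gab2 rests on part of its 3 probe sets above background, 1 of which differed by -0.28 and 0.003 in the 2 deletions. Between the controls Socs2 was higher by 2.54 and 0 were lower, against 2.35% higher and 2.95% lower of all genes. Crlf2, which pairs with the IL-7 receptor alpha chain to bind TSLP, differed by -0.41, 0.11 and -0.12 in the 3 comparisons, and was the only compared gene of 3 receptor chains that pair with a member outside the family.

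Of 17 genes known to respond to cytokines of the family, 16 were compared. Without STAT3, 4 were higher and 1 lower, against 2.85% and 7.24% of all genes. Gata3, the Th2 regulator induced by IL-4 signalling, stood at 3.22, followed by Gzmb (2.72), Klf2 (2.03) and Lta (1.19), and Osm at -1.36. The median was -0.14, against -0.20 over all genes. Without STAT5, 3 were higher and 4 lower, against 1.86% and 1.74% of all genes. The list's median was -0.48, against 0.06 over all genes. Gata3 (1.75), Bcl6 (1.59) and Gzmb (1.53) were higher and Foxp3 (-3.37), Lta (-2.52), Bcl2 (-1.60) and Pim2 (-1.02) lower. Between the controls, Foxp3 (3.79), Lta (2.77) and Gzmb (2.24) were higher with IL-2 and Klf2 (-1.92) and Bcl2l11 (-1.31) lower. Of all genes, 2.35% were higher there and 2.95% lower. Foxp3 (3.94) and Gzmb (5.52) in STAT3 wild type, Foxp3 (4.36) in STAT5-deficient and Klf2 (5.70) in STAT5 wild type cells lay under 6.20, so the sizes that rest on them are uncertain. Foxp3 exceeded 6.20 on the STAT5 wild type array only, and so was compared only through the array where it is high. That selection fixed the direction of its calls, lower without STAT5 and higher between the controls. Gata3 lay close above 6.20 in both controls, at 6.69 (STAT3 wild type) and 6.30 (STAT5 wild type), so its sizes are uncertain too. The counts also moved with scaling. Bcl2l11 passed 2-fold without STAT3 under all 3 scalings (1.10 to 1.18) and Cd69 without STAT5 under 2 (-1.02 and -1.01). For Bcl2l11 this holds for the brightest probe set. As deposited, its 5 probe sets above background ran from -0.29 to 0.935, and its probe set mean was 0.48. Between the controls, Bcl2 (1.13) and Cd69 (1.11) passed 2-fold with array median centring.

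**Figure D4:**
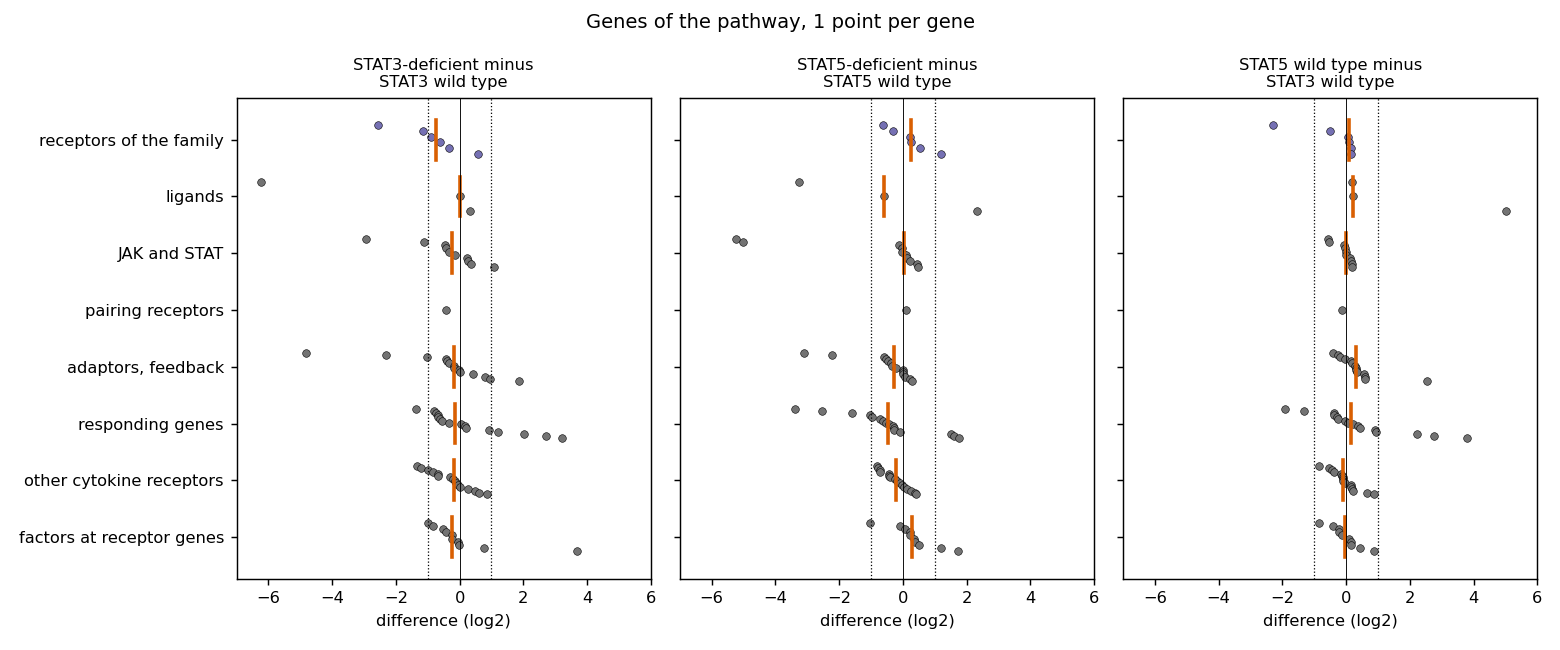
Difference (log2) of each compared gene in the 3 comparisons, grouped by role, 1 point per gene; orange bars are medians of lists with at least 3 compared genes and dotted lines mark 2-fold. The receptors of the family have a median of -0.76 without STAT3, and as deposited the cytokine receptors outside the family stay within 2-fold in the other 2 comparisons.

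Cytokine receptor chains outside the family served as the nearest comparison. Of 27 measured, 16 were compared. Without STAT3, Epor (-1.32), the erythropoietin receptor, and Ifngr2 (-1.20), a chain of the interferon gamma receptor, were lower and no other chain passed 2-fold as deposited. Their median was -0.17, near the -0.20 of all genes, of which 7.24% were lower and 2.85% higher. With array median centring Ifngr2 stood at -0.96, short of 2-fold, and under each of the 3 scalings tried 1 chain was higher, Ifnar1 (0.86 as deposited, up to 1.15). Without STAT5 and between the controls, 0 passed 2-fold in either direction, where 3.6% and 5.3% of all genes did, and the farthest were Ifngr2 (-0.81) and Il12rb1 (0.89). The other Ifngr2 probe set gave 0.05 without STAT5, so its place rests on 1 of 2 probe sets, and Il12rb1 passed 2-fold, at 1.08, with array median centring. Il6st, the shared chain of the IL-6 receptor, differed by -0.99 without STAT3.

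Transcription factors known to act at these receptor genes were also listed, and 10 of 11 were compared. Gfi1, a known repressor of Il7r, stood at 7.81, 8.57, 6.97 and 8.16, lowest on the array where Il7r was lowest. Without STAT3 it differed by 0.75, where Il7r differed by -1.16. It was higher by 1.19 without STAT5, where Il7r was higher too. The relation of Gfi1 to Il7r was not tested. Foxo1, a known activator of Il7r, differed by -0.84, -0.08 and -0.21 in the 3 comparisons. Ets1, an ETS factor of T cells, differed by -1.04 without STAT5 and by -0.99 without STAT3, but its 4 probe sets ran from -1.04 to -0.31 and from -1.53 to -0.99. Their means, -0.74 and -1.16, put it past 2-fold without STAT3 and not without STAT5. In all, 1 factor was higher and 0 lower without STAT3, 2 higher and 1 lower without STAT5, and 0 either way between the controls as deposited. Tbx21 was the 1 higher without STAT3 and 1 of the 2 higher without STAT5. It exceeded 6.20 on the deficient arrays only, and so was compared only through the arrays where it is high. That selection fixed the direction of its calls. Of all genes, 10.1%, 3.6% and 5.3% passed 2-fold in these comparisons. With quantile normalization Gfi1 was also higher without STAT3, at 1.03. Gfi1 stood at -0.85 between the controls, and Tbx21, under 6.20 on both arrays, passed 2-fold under each of the 3 scalings tried.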

How the data were processed

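Each of 4 cultures gave total RNA for 1 Affymetrix Mouse Genome array, after biotin labelling. The deposited log2 values per probe set were made by the authors with Affymetrix Power Tools, per the submitters' processing notes (version, summarisation, background correction, centring: not given in the sources used here). Log2 as the scale is read from the range, 2.48 to 15.09, and another base would change every fold. Of 45101 probe sets, 34945 name 1 gene in the platform annotation, 932 several and 9211 none; 13 control probe sets naming 1 gene were left out. A gene's value is that of its brightest probe set by the mean of the 4 arrays. Genes were compared where the highest of 4 values exceeded 6.20 (percentile 50). Differences are of log2 values, with no test. Members and lists were chosen with earlier results of these data known. The genes named are all members and ligands, the targeted genes, up to 4 list genes per comparison past 2-fold or the farthest one, and 3 closest profiles for members spanning 2-fold; others named (Jak1, Stat6, Crlf2, Il6st, Foxo1, the genes named for passing 2-fold under another scaling only, and Ets1, Gfi1 and Tbx21 where short of 2-fold) were chosen after their values were seen. Promoter windows are from RefSeq tables of GRCm38.p6. Alternatives were probe set means, leaving out probe sets shared between transcripts, no filter or percentile 75 (8.29), array median, loess (span 0.4) and quantile scaling, and 1.5-fold and 3-fold thresholds. Python 3.11.15, pandas 2.3.3 and statsmodels 0.14.6 were used, and the calling code was tested on simulated data.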

Additional observations from a re-analysis of the deposited data

Results flagged for a closer look

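Il7r differed by -1.16 without STAT3 and by 1.21 without STAT5, in opposite directions and past 2-fold in both as deposited. Its difference without STAT3 came to -0.91 with array median centring, and was also short of 2-fold under quantile normalization. Socs2, the feedback inhibitor, had the reverse signs, at 1.86 and -3.12. Its 5 probe sets ran from 0.27 to 1.86 without STAT3, and their mean, 0.89, does not pass 2-fold. Lta, the lymphotoxin gene, stood at 1.19 and -2.52. Genes higher without STAT3 and lower without STAT5 made up 0.177% of all genes compared. The difference between the deletions was not tested, since each rests on 1 array per group, and the 2 pairs of cultures also differed in IL-2.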

How the results depend on the processing

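Of the receptors, 2 passed 2-fold without STAT3, and this count came to 1 when probe sets shared between transcripts were left out (Il7r, with Il4ra then unmeasured), 1 with array median centring and 1 with quantile normalization (Il4ra, with Il7r at -0.91 after median centring), 4 at a threshold of 1.5-fold and 1 at 3-fold, which 24.9% and 4.20% of all genes passed. Without STAT5, the count of 1 came to 2 at 1.5-fold (Il7r higher, Il4ra lower) and to 0 at 3-fold, which 11.6% and 1.15% of all genes passed. Between the controls, the count of 1 came to 2 with no filter, where Il9r, under background on all arrays, was added. Other alternatives kept these counts within 1.5 times; with probe set means Il2ra joined the lower genes without STAT3, at -1.13. Over the scalings and probe set rules tried, Il4ra stayed between -2.57 and -2.28 without STAT3, and Il7r between 1.12 and 1.21 without STAT5 and between -2.54 and -2.11 between the controls. Gab2 without STAT5 turned from -2.23 to 0.0029 when probe sets shared between transcripts were left out; the cause was not tested. Of all genes called without STAT3, 71.8% were lower as deposited and 52.6% with array median centring, and between the controls 55.7% and 26.4%. No paired analysis was possible because each group has 1 array. Il9r and part of Il15ra lie too near background for their differences to be read.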
